A study of Rattus norvegicus with 2 samples.

Results

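The genes described here are 10 genes of the liver X receptor (LXR) pathway and of cholesterol efflux: the receptor genes Nr1h3, Nr1h2 and Rxra, the transporter genes Abcg1, Abca1, Abcg4 and Scarb1, the apolipoprotein gene Apoe, and the LXR targets Mylip and Lpcat3. They were found by gene symbol in the platform annotation of the Clariom S rat array, and each of the 10 had 1 transcript cluster, the set of short probes that measures 1 gene, among 15037 named genes. Thymus RNA was measured in 1 cocaine-treated rat and 1 control rat, both male, with 1 array each. By the methods, the rats were Sprague-Dawley and 8 weeks old, and the treated one received cocaine hydrochloride at 20 mg/kg/day in saline through the tail vein for 7 days, while controls were given the same volume of saline; the title of the control sample says No Stimulation. The titles name thymus, but the note on RNA isolation names spleen. Rag1 and Dntt, which act in T cell receptor rearrangement in immature thymocytes, lay at or above percentile 99.87 of all transcript clusters on each array. Because each group was a single array, spread between replicates is unknown, no test could be run, and precision is limited by the number of arrays.

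LXRα (Nr1h3) and LXRβ (Nr1h2) are nuclear receptors that bind oxysterols, the oxidized forms of cholesterol. They act as heterodimers with RXRα (Rxra) on DNA elements in which the half-site AGGTCA is repeated with a spacer of several bases, and in macrophages they switch on genes that move cholesterol out of the cell. Among their known targets in mice and humans, Abca1 passes cholesterol to lipid-poor apolipoproteins, Abcg1 passes it to high-density lipoprotein (HDL), and Mylip marks lipoprotein receptors for degradation. In the thymus, macrophages that engulf dying thymocytes take up the cholesterol of those cells.

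In the cocaine thymus Abcg1 was 2.36-fold and Nr1h3 1.57-fold higher than in the control. The other 8 genes stayed within 1.5-fold, so none of the 10 was lower past that limit. Of 23188 transcript clusters, 1.98% were higher and 2.29% lower by more than 1.5-fold. Abcg1 was picked by the study from these same arrays, and the 10 genes were put together with their differences known, so nothing is read from their count against that share. Their median difference (cocaine minus control) was 0.12 on the log2 scale, beside 0.012 for all transcript clusters. Without Abcg1 the median was 0.048.

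For 3 of the 10 genes, Nr1h2, Rxra and Abcg4, the deposited intensity was exactly the same number on both arrays, as it was for 27.2% of all transcript clusters. How such identical values arose is not stated in the sources used here, so they do not show that expression was equal. Quantile normalization, which gave the log2 levels below, moved these 3 genes apart by at most 0.051. The other 7 genes all had a higher deposited intensity in the cocaine array. Of all 23188 transcript clusters, 8574 had a higher deposited intensity there and 8314 a lower one. Since the 10 genes were put together with their differences known, nothing is read from this count either.

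Of the 10 genes, 8 had a promoter window in the RefSeq table for the assembly GRCr8, which spans 250 bases before to 50 after each start; Abcg1 and Scarb1 were not among them. The windows were searched on both strands for an LXR-type element, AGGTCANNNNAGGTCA, with at most 3 mismatches among its 12 fixed letters. Abca1 alone of the 8 genes held such a match, beside 23.3% of all genes with a window and 21.9% of all 33469 windows. The 250 bases before the start are shown for Abca1, for the receptor gene Nr1h3 and for Mylip, since these are a transporter gene and a receptor gene with higher values in the cocaine thymus and an LXR target with nearly equal values. The motifs CACGTG and TATAAA, searched without mismatch on both strands, were found in 6.42% and 14.2% of all windows. Capitals mark, from left to right, CACGTG, the LXR-type match and TATAAA in Abca1, and TATAAA in Mylip. In Nr1h3 none of the 3 motifs was found.
Abca1 promoter, chr5:72596474-72596723, minus strand: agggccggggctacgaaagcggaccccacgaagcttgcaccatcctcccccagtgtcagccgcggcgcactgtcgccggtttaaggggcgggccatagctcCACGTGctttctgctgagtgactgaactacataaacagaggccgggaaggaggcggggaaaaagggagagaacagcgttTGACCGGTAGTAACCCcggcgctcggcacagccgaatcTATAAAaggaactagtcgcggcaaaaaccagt
Nr1h3 promoter, chr3:97623230-97623479, minus strand: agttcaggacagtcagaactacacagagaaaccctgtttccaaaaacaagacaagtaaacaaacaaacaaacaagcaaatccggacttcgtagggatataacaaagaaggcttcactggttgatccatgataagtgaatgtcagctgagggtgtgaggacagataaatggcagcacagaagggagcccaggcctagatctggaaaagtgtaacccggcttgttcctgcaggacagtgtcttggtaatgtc
Mylip promoter, chr17:19514472-19514721, minus strand: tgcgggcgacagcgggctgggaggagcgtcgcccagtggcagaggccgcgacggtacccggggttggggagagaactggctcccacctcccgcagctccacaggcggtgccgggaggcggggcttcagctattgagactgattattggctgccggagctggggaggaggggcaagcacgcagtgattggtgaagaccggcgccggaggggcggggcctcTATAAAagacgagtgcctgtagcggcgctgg

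The LXR-type match of Abca1 runs from position -70 to -55 relative to the start. It lies on the strand opposite to the gene, so the match is set here beside the element searched, as read on the opposite strand, with both half-sites in capitals and the spacer in lower case.
Element searched: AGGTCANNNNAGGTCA
Abca1 match: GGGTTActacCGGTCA
Counted from 1 at the 5′ end of the element, the match differs by A1G, C5T and A11C. The TATAAA of Abca1 lies at positions -32 to -27 and that of Mylip at -31 to -26. The stretches before the start were 59.6% G and C in Abca1, 45.2% in Nr1h3 and 68.4% in Mylip. These matches describe letters only and were not measured as binding.

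Nr1h3 had a deposited intensity of 494 in the cocaine thymus, against 302 in the control thymus. On the log2 scale after quantile normalization its level was 8.91 in the cocaine thymus and 8.26 in the control thymus, a difference of 0.65. It ranked 6838th of 23188 transcript clusters on the cocaine array and 8110th on the control array. Nr1h3 was thus the gene just past the 1.5-fold limit, and by its difference it ranked 323rd from the top of all transcript clusters. Of the 1159 transcript clusters of like mean intensity (a band of 5% of all), 43 differed by more, in either direction.

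The companion receptor genes had no such difference in deposited values, which does not show that their expression was equal. Nr1h2 had a deposited intensity of 1926 on both arrays, with a log2 level of 10.89 in the cocaine thymus and 10.94 in the control thymus. Rxra was at 323 on both arrays, and at 8.31 in the cocaine thymus and 8.36 in the control thymus on the log2 scale. The gap between the normalized levels of these 2 genes came from the normalization alone, since the deposited values were equal.

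Abcg1, the transporter gene of efflux to HDL, had a deposited intensity of 6213 in the cocaine thymus, against 2543 in the control thymus. Its log2 level was 12.58 in the cocaine thymus and 11.34 in the control thymus, a difference of 1.24. It ranked 1594th of all transcript clusters on the cocaine array and 2894th on the control array. This was the 7th largest positive difference of all transcript clusters and the 5th among named genes, and only 3 of 1159 transcript clusters of like mean intensity differed by more in either direction. By more than 2-fold, 0.151% of all transcript clusters were higher and 0.224% lower, and Abcg1 was the only one of the 10 genes among them.

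Abca1, the transporter gene of efflux to lipid-poor apolipoproteins, had a deposited intensity of 692 in the cocaine thymus and 464 in the control thymus. On the log2 scale it was at 9.41 in the cocaine thymus and 8.89 in the control thymus. The difference of 0.51, or 1.42-fold, left Abca1 just short of the 1.5-fold limit, and 83 of 1160 transcript clusters of like mean intensity differed by more. With each array centred on its median instead, the difference of Abca1 was 0.60, which is past 1.5-fold, so that 3 of the 10 genes were higher.

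Scarb1 encodes a receptor that exchanges cholesterol between cells and HDL. Its deposited intensity was 177 in the cocaine thymus and 134 in the control thymus, and its log2 level was 7.46 in the cocaine thymus and 7.08 in the control thymus. The difference was 0.38, or 1.30-fold, and 171 of 1160 transcript clusters of like mean intensity differed by more. Abcg4 encodes a close relative of Abcg1 known mainly from the brain. Its deposited intensity was 106 on both arrays, and with log2 levels of 6.73 in the cocaine thymus and 6.71 in the control thymus it alone of the 10 genes had a mean intensity under the overall median. Among the 4 transporter genes, then, 3 had higher deposited values in the cocaine thymus and 1 had equal ones.

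Apoe encodes apolipoprotein E, which carries cholesterol released by macrophages and binds lipoprotein receptors. It was among the brightest rows of both arrays, at a deposited intensity of 88543 in the cocaine thymus and 77685 in the control thymus. Its log2 level was 16.44 in the cocaine thymus and 16.26 in the control thymus, and it ranked 171st and 199th on these arrays. The difference of 0.185, or 1.14-fold, was small beside those of Abcg1, Nr1h3 and Abca1, and 327 of 1160 transcript clusters of like mean intensity differed by more.

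Mylip and Lpcat3 had nearly equal levels. Mylip, the ubiquitin ligase gene, had a deposited intensity of 2638 in the cocaine thymus and 2469 in the control thymus, and log2 levels of 11.34 in the cocaine thymus and 11.29 in the control thymus. Lpcat3 encodes an enzyme that puts polyunsaturated fatty acids into membrane phospholipids. It had a deposited intensity of 1599 in the cocaine thymus and 1502 in the control thymus, and log2 levels of 10.62 in the cocaine thymus and 10.57 in the control thymus. The differences of Mylip and Lpcat3 were 0.048 and 0.046, and under every scaling tried both stayed above 0 and at or below 0.12. Most transcript clusters of like mean intensity differed by more, 813 of 1160 for Mylip and 915 of 1159 for Lpcat3.

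**Figure D1:**
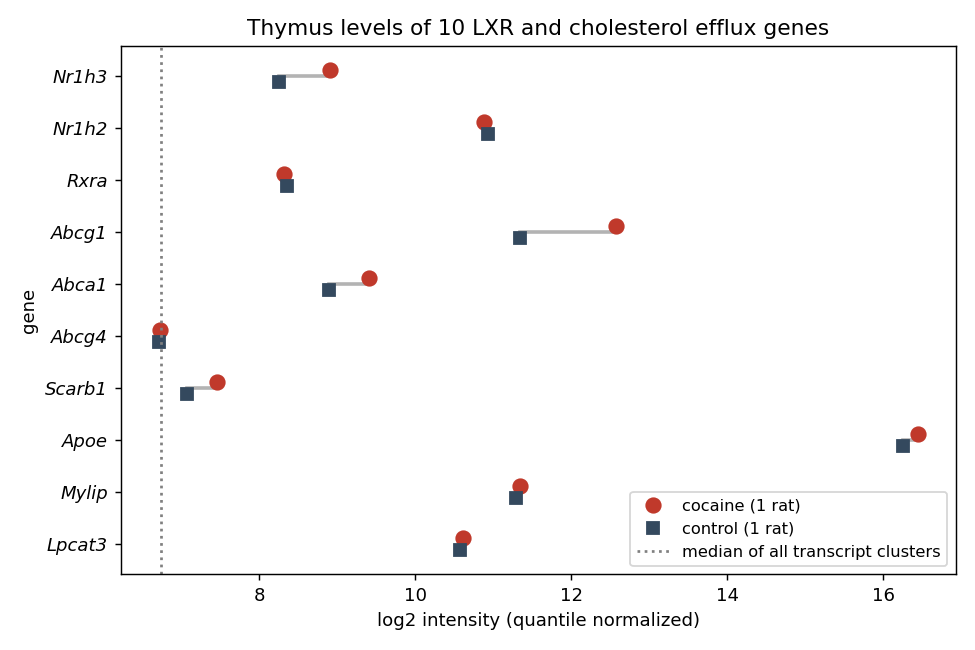
Log2 intensity after quantile normalization (horizontal axis) of the 10 genes, with a circle for the cocaine thymus and a square for the control thymus (1 rat each, no error bars possible). The widest gaps are those of Abcg1 (12.58 with cocaine and 11.34 in the control), Nr1h3 (8.91 and 8.26) and Abca1 (9.41 and 8.89), while the symbols of Nr1h2, Rxra, Abcg4, Mylip and Lpcat3 lie almost on top of each other.

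Brightness depends on the probes of each gene, so the ranks describe rows of the arrays, and no difference in expression between genes was read from them. Across the 5 scalings of the arrays, the difference of Abcg1 ran from 1.23 to 1.31, that of Nr1h3 from 0.65 to 0.73, that of Abca1 from 0.51 to 0.60 and that of Scarb1 from 0.38 to 0.42. These 4 genes and Apoe thus kept both their sign and their order. The sign of Nr1h2 and Rxra, in contrast, turned from below 0 to 0.022 under centring on the array medians. The named genes of at least median brightness whose difference lay closest to that of Abcg1 were Mcrs1 (1.22, with log2 levels of 8.40 in the cocaine thymus and 7.18 in the control thymus), Crtap (1.20) and the thrombin receptor gene F2r (1.36). This likeness is the gap between 2 differences on 2 arrays and nothing more.

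**Figure D2:**
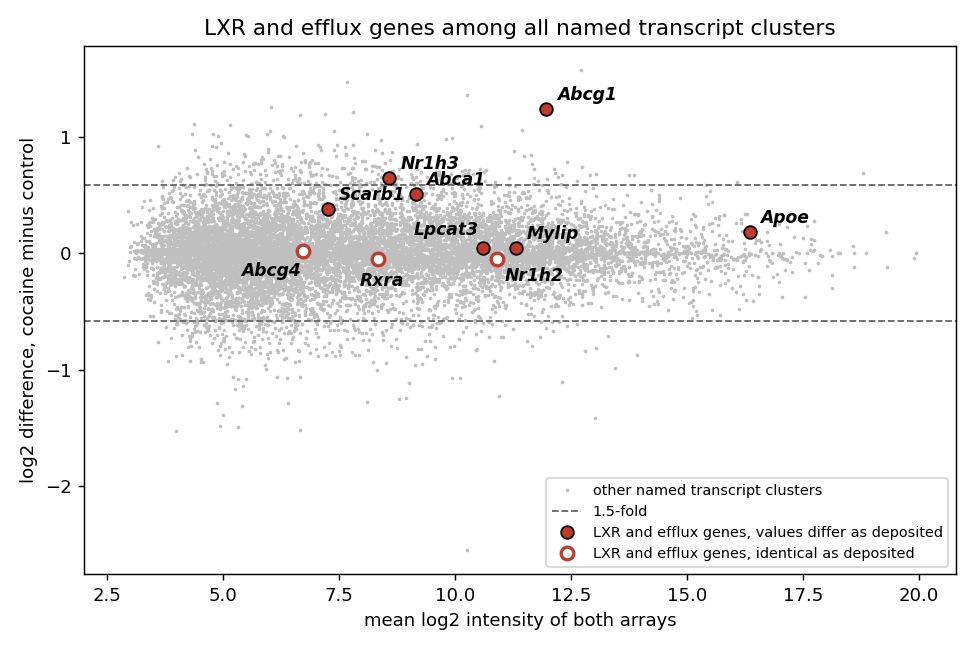
Log2 difference, cocaine minus control (vertical axis), against the mean log2 intensity of both arrays (horizontal axis) for all named transcript clusters (grey) and the 10 genes (red circles, open where the deposited values were identical). Dashed lines mark 1.5-fold; Abcg1 at 1.24 stands above nearly all grey points near its brightness, Nr1h3 at 0.65 lies just above the upper line and Abca1 at 0.51 just below it.

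The other genes of the pathway were taken from lists by function, and counts are given beside the 4.27% of all transcript clusters that passed 1.5-fold in either direction. Across 11 such lists, 114 of 141 genes were measured, of which 4 passed 1.5-fold upward, 4 passed it downward and 106 did not pass it. Their median difference was -0.017. With the values as deposited or centred on array medians, 5 genes passed it upward and 4 downward, and among rows of at least median brightness 3 passed it upward and 2 downward.

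Among 23 other LXR target genes, 3 passed 1.5-fold upward, 1 passed it downward and 19 did not pass it, with a median of 0.024. Pltp, which encodes the phospholipid transfer protein that remodels HDL, was at 12.06 in the cocaine thymus and 11.33 in the control thymus, 1.65-fold higher. Abcg5, one subunit of a sterol export pump of liver and intestine, was at 6.44 in the cocaine thymus and 5.67 in the control thymus; this row was dim, with a mean intensity under the overall median. Its obligate partner Abcg8 held identical deposited values on both arrays. Srebf1, the LXR-induced transcription factor gene of fatty acid synthesis, was at 10.37 in the cocaine thymus and 9.78 in the control thymus, 1.51-fold higher and close to the limit. On the other side was Scd, the stearoyl-CoA desaturase gene, at 8.98 in the cocaine thymus and 11.54 in the control thymus, 5.87-fold lower, which the study also picked from these arrays. Within the limit, Thrsp and Elovl5, which serve lipogenesis and fatty acid elongation, differed by -0.56 and -0.41, and the desaturase gene Fads1 by 0.30. Of the targets named here, those below 0 were Scd, Thrsp and Elovl5. As deposited, 10 of all 23 targets were brighter in the cocaine thymus, 9 were dimmer there and 4 were identical.

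The RXR forms and the coregulators of LXR, 10 measured genes, all lay within 1.5-fold, with a median of -0.062. Rxrb was at 8.27 in the cocaine thymus and 7.92 in the control thymus. Gps2, a subunit of the corepressor complex, was at 11.14 in the cocaine thymus and 11.45 in the control thymus, and the coactivator gene Ncoa6 was at 11.19 and 11.33 in these thymi. Among 12 other receptors that pair with RXR, 1 was higher and 1 lower by more than 1.5-fold. The higher one was the thyroid hormone receptor gene Thra, at 8.87 in the cocaine thymus and 8.01 in the control thymus, 1.82-fold higher. The lower one was Pparg, the receptor gene of adipocyte development, at 5.53 in the cocaine thymus and 6.19 in the control thymus, 1.59-fold lower, in a dim row. The remaining receptors included Nr1i2, which differed by -0.41, Vdr by -0.36 and Ppara by -0.24. Nr1h3 and Thra were therefore the 2 genes of this receptor group that passed the limit upward.

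Genes of the enzymes that make or break down oxysterols, the ligands of LXR, were dim, since 1 of 7 reached the overall median of mean intensity. All 7 lay within 1.5-fold, and 4 held identical deposited values. Ch25h, which makes 25-hydroxycholesterol, was at 6.05 in the cocaine thymus and 5.92 in the control thymus. Cyp7b1, which clears oxysterols, was at 5.65 in the cocaine thymus and 5.43 in the control thymus, and Cyp11a1, which starts steroid hormone synthesis from cholesterol, differed by -0.32. Oxysterol levels themselves were not measured on these arrays.

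Of 20 genes that move or store cholesterol, Pltp was higher and Apoa4 lower past the 1.5-fold limit, with a median of 0.034. Apoa4, an apolipoprotein gene of the intestine, was at 9.73 in the cocaine thymus and 10.46 in the control thymus. Cav1, a gene of caveolae, was at 7.63 in the cocaine thymus and 8.14 in the control thymus, Nceh1, a cholesteryl ester hydrolase gene, differed by -0.49 and the endosomal carrier gene Stard3 by 0.32. Of 10 other Abca and Abcg genes, Abcg5 was higher and the dim Abca17 (4.07 in the cocaine thymus and 4.74 in the control thymus) lower by more than 1.5-fold. Abca5 differed by 0.34, Abcg2, an exporter gene of drugs and porphyrins, by 0.24 and Abca8a by -0.24. The difference of Abcg1 was the largest of any Abca or Abcg gene measured here, but the study picked Abcg1 from these same arrays. Its place in the family is thus no separate result, and of 19 other family genes listed only 10 had a row.

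None of the 5 measured lipoprotein receptor genes, of which Vldlr is a substrate of Mylip, passed 1.5-fold, and their differences ran from -0.020 to 0.10. The 3 genes of Mylip partners and the 5 genes of phospholipid remodelling beside Lpcat3 did not pass it either. The widest difference among the partners was -0.34 for Usp2, a deubiquitinase gene, in a row among the dimmest 25%. Vldlr was at 7.20 in the cocaine thymus and 7.22 in the control thymus, Lrp2 was at 6.69 and 6.58 in these thymi and Lrpap1, a chaperone gene of these receptors, at 8.62 and 8.57. Lpcat1 and Mboat1 held identical deposited values, and Lpcat2 differed by -0.050.

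SREBP-2 (Srebf2) switches on cholesterol synthesis when sterol is low, the counterpart of LXR. Of 6 sterol sensing genes and 16 cholesterol synthesis genes, none passed 1.5-fold, and the medians were -0.030 and -0.022. Srebf2 was at 9.81 in the cocaine thymus and 9.92 in the control thymus. Insig2, which holds SREBP in the endoplasmic reticulum, differed by -0.20, and Mbtps1, a protease gene that activates SREBP, by 0.29. In synthesis, Fdps, Dhcr7 and Mvk had the largest differences, at 0.56, 0.55 and 0.46.

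**Figure D3:**
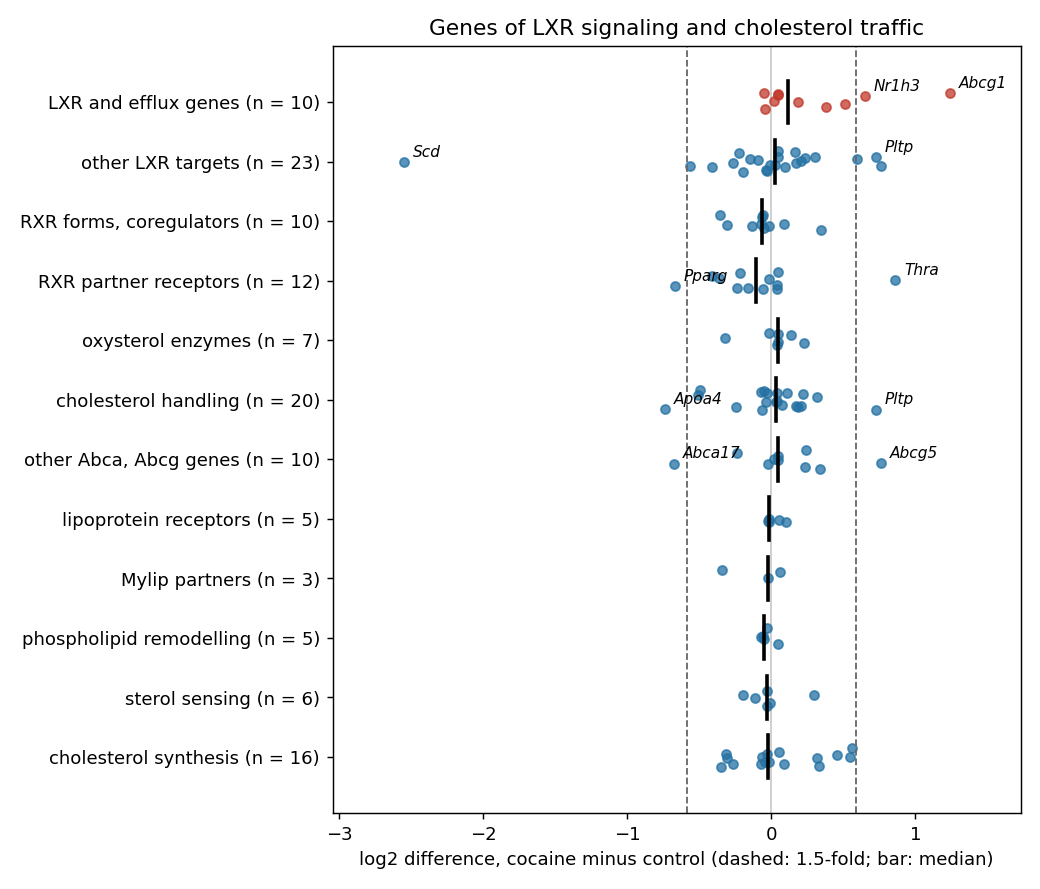
Log2 difference, cocaine minus control (horizontal axis), of each measured gene in the 10 genes described here (red) and in 11 lists of related function (blue), with a bar at each median and dashed lines at 1.5-fold. The red points reach 1.24 (Abcg1), while Scd at -2.55 lies farthest out among the other LXR targets and the lists from lipoprotein receptors to cholesterol synthesis stay between the lines.

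Macrophages, adipocytes and hepatocytes express several of the 10 genes, so their markers are set beside them. In whole tissue, fewer cells of a type and less RNA per cell cannot be told apart. Of 16 macrophage markers, 2 passed 1.5-fold upward and 0 downward, with a median of 0.077. Aif1 was at 10.26 in the cocaine thymus and 9.58 in the control thymus, and Csf1r, the receptor gene of the growth factor of macrophages, was at 6.59 in the cocaine thymus and 5.91 in the control thymus in a dim row. As deposited, 9 of the 16 were brighter in the cocaine thymus, 4 were dimmer there and 3 were identical. Within the limit, C1qc, a complement subunit gene, was at 8.96 in the cocaine thymus and 8.75 in the control thymus, and the scavenger receptor gene Marco was at 6.07 and 5.75 in these thymi in a dim row. Lyz2, the lysozyme gene shared with neutrophils, was at 14.93 in the cocaine thymus and 15.33 in the control thymus. The summed deposited intensity of the 16 markers was 39233 in the cocaine thymus and 48774 in the control thymus, and without Lyz2, the brightest, it was 8274 in the cocaine thymus and 7275 in the control thymus. No marker was at 0, and the lowest value among them was an intensity of 13.4. Thus Abcg1 and Nr1h3 had the direction of Aif1 and Csf1r but not that of all macrophage markers, and the part of such cells in these differences was not tested.

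Of 8 adipocyte markers, 0 passed 1.5-fold upward and 3 downward (Adipoq, Fabp4 and Pparg). The study picked Adipoq and Fabp4 from these arrays. As deposited, 3 of the 8 were brighter in the cocaine thymus, 4 were dimmer there and 1 was identical, and within the limit Cidec differed by 0.29, Cfd by 0.20 and Retn by -0.29. Their summed intensity was 4358 in the cocaine thymus and 8671 in the control thymus, and without Fabp4, the brightest, it was 859 in the cocaine thymus and 1284 in the control thymus. Of 5 hepatocyte markers, only Alb passed the limit, at 7.82 in the cocaine thymus and 8.82 in the control thymus, with a median of -0.39 for the list. The part of such cells in the differences of the 10 genes was not tested. All 10 immature thymocyte markers lay within 1.5-fold, with a median of -0.014. So did all 6 thymic epithelial markers, with a median of 0.056, 3 of them above 0 and 3 below. Foxn1 and Prss16 had the largest differences, at 0.37 and 0.34, while Krt8, Krt14 and Aire differed by -0.036, -0.058 and -0.063. Of 6 endothelial markers, only Tek passed the limit, and just so, at 7.60 in the cocaine thymus and 7.01 in the control thymus. The median of these 6 was 0.060, with 3 above 0 and 3 below. Among them Pecam1 differed by 0.22 and Emcn by -0.24, and 2 were identical as deposited. The 2 B cell and 3 dendritic cell markers measured differed by at most 0.072 in either direction, and of 5 erythroid markers the dim Slc4a1 passed 1.5-fold downward (4.22 in the cocaine thymus and 5.51 in the control thymus).

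**Figure D4:**
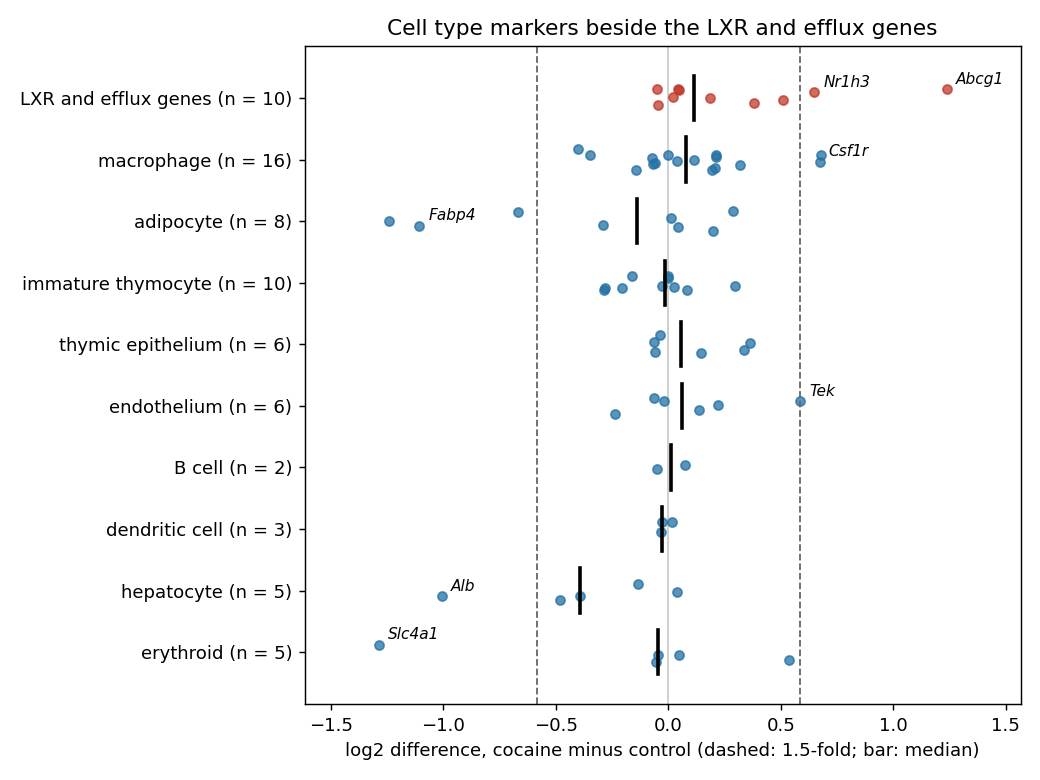
Log2 difference, cocaine minus control (horizontal axis), of the 10 genes (red) and of the measured markers of 9 cell types (blue), 1 point per gene, with a bar at each median and dashed lines at 1.5-fold. The 16 macrophage markers run from -0.40 to 0.68, with Csf1r, a dim row, at 0.67, while Fabp4 among the adipocyte markers lies at -1.11.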

How the data were processed

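Thymus RNA of 1 cocaine-treated and 1 control rat was hybridized to Clariom S arrays. The authors used TAC software for the arrays and deposited a linear intensity for every transcript cluster, with a median of 107 for cocaine and 108 for control. Which version, background correction, normalization and genome build it used is not given in the sources used here. Of 24834 rows, 1646 control rows were left out. The remaining 23188 transcript clusters were taken to log2 and quantile normalized, which moved differences by at most 0.102. Gene symbols came from the platform annotation, which named 15049 transcript clusters, and all were matched to RefSeq (GRCr8) by gene number without a change of symbol. Of 218 genes in the 11 pathway and 9 marker lists, 174 had a row, each with 1 transcript cluster. Some genes stand in more than 1 list. Other list genes were not analysed here.

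Having a single array in each group, the data allowed no test. The 10 genes and all lists were chosen with earlier results of these data known. Beside these genes, those named were every list gene past 1.5-fold and up to 3 others per list chosen by the size of the difference among rows above the lowest 25% in mean intensity, Rag1 and Dntt as a check of the tissue, and the 3 genes closest to Abcg1 in difference. Abcg8 and Usp2 were chosen outside it, once their values had been seen. Like mean intensity means the same of 20 equal bands of mean log2 intensity. The alternatives were the log2 values as deposited, centring on array medians, lowess centring (span 0.3), quantile normalization with the control rows, filters on dim rows and a limit of 2-fold. The steps were tested on simulated data. The tools were numpy 2.4.6 and pandas 2.3.3 under Python 3.11.15, with lowess from statsmodels 0.14.6 and plots from matplotlib 3.10.9.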

Additional observations from a re-analysis of the deposited data

How the results depend on the processing

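No paired analysis was possible because there was a single array in each group, which also left no replicate to leave out. Under the 4 other scalings, each of the 10 differences moved by less than 1 robust SD of differences at like mean intensity. This is a weak check, since no scaling moved a difference far. A mean over transcript clusters could change nothing, since each gene had 1. The count of genes higher by more than 1.5-fold was 2, or 3 with each array centred on its median, and 1 at a limit of 2-fold. The median of the 10 genes (0.12) was 0.16 with each array centred on its median, 0.185 for genes of at least median mean intensity, 0.30 as a mean and 0.048 without Abcg1. Without the 3 genes with identical deposited values, an alternative added after seeing the data, it was 0.38. Among rows of at least median mean intensity, 244 transcript clusters were higher and 227 lower by more than 1.5-fold (460 and 531 among all), 16 were higher and 24 lower by more than 2-fold (35 and 52 among all), and 3 genes of the other pathway lists were higher and 2 lower by more than 1.5-fold (4 and 4 among all), since fewer rows were counted.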

Other observations

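In the bands of mean intensity that hold the 10 genes, 17.5% (the band of Abcg1) to 27.5% (the band of Abcg4) of transcript clusters were identical on both arrays. The share that passed 1.5-fold in either direction in these bands ran from 1.21% (Apoe) to 6.47% (Abcg4). In the 11 pathway lists 31 of 114 genes were identical, 44 had a higher and 39 a lower deposited intensity in the cocaine thymus.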
